A study of Mus musculus with 6 samples.

Results

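The nuclear-encoded subunits of the respiratory chain and ATP synthase were followed in single-cell RNA of 4T1 mouse breast tumours. Members were the genes whose symbols belong to the families Nduf (a, b, c, s and v series with a number), Sdha to Sdhd, Uqcr, Cox4i, Cox5, Cox6, Cox7, Cox8 and Atp5, and that held at least 20 UMIs (unique molecular identifiers, each standing for 1 captured RNA molecule) over all cells. Of 84 symbols that matched, 77 reached the minimum, of 27933 genes in the files. They held 118463 of 6038386 UMIs, or 1.96%. By name, 37 members belong to complex I, 4 to complex II, 8 to complex III, 11 to complex IV and 17 to complex V.

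The 4T1 cell line is a mouse mammary carcinoma line, and its tumours were grown in Balb/c mice. The FVIO-MHT group comprised 3 libraries from tumours that received FVIOs (ferrimagnetic vortex iron oxide nanorings), 0.1 mg per cm3 of tumour, followed by 10 min in an alternating magnetic field of 365 kHz, a form of mild magnetic hyperthermia. The PBS group comprised 3 libraries from tumours given saline, and all tumours were taken 24 hours later. No source used here gives the age and sex of the mice, whether each library is 1 mouse, or whether PBS tumours met the field. The p-values therefore set a group difference against the spread between these libraries, and that spread may be technical.

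Complexes I to IV pass electrons from NADH and succinate to oxygen in the inner mitochondrial membrane, and complexes I, III and IV pump protons as they do so. Complex V, the ATP synthase, uses the proton gradient to make ATP. Most subunits are encoded in the nucleus and imported, while 13 are encoded by mitochondrial DNA, so each of complexes I, III, IV and V is built from both genomes, and complex II from nuclear genes alone. Tumour cells often keep respiration beside a high rate of glycolysis, and neutrophils are known for few mitochondria and a mostly glycolytic energy supply.

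Transcript ends decide what a 3' tag count can show for near-identical genes. The c ring of ATP synthase is the rotor that protons turn, and its subunit is encoded by 3 genes, Atp5g1, Atp5g2 and Atp5g3, whose proteins differ in the import leader that is cut off. The last 228 coding bases of each gene, stop codon included, are shown because they encode the same 75 residues with 0 differences. Capitals mark bases that differ from Atp5g3. The sequences come from the GENCODE transcripts (GRCm38).
Atp5g1: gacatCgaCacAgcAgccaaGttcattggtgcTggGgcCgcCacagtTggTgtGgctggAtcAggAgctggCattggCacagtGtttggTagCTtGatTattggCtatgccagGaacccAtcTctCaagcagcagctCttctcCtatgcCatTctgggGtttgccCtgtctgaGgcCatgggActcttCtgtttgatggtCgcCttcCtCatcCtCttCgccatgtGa
Atp5g2: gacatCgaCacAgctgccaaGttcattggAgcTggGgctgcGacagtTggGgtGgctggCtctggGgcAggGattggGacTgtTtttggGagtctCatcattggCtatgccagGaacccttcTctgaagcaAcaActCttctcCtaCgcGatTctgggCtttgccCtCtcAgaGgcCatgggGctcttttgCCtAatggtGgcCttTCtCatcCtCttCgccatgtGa
Atp5g3: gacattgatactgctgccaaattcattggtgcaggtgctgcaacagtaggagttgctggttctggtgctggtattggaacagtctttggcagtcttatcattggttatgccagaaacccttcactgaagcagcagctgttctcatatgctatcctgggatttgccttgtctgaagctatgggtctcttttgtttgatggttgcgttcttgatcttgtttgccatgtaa
Atp5g1 differed from Atp5g3 at 46 of these bases and Atp5g2 at 49, so 79.8% and 78.5% of bases were identical. These coding bases thus differ between the 3 genes, and Drop-seq reads come from the transcript ends. Words of 50 bases were taken from the last 500 bases of the transcript. Of these, 100% for Atp5g2, 74.5% for Atp5g1 and 0% for Atp5g3 also occurred in transcripts of other genes. The Atp5g2 transcript used has 441 bases, so its words include its coding part. Which other genes share these words is not given here. Atp5g3 took 2539 UMIs, Atp5g1 222 and Atp5g2 90. No source used here says how the counting treated reads that fit several genes, so the order of the 3 isoforms is uncertain. In all, 7 members had 50% or more of these words in common with another gene: Atp5g2, Atp5l, Atp5g1, Atp5h, Cox7c, Atp5o and Ndufs3. The other 70 had less, and 46 shared none.

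Promoters were looked at because many subunit genes are known to carry sites for NRF1 and for ETS-family factors such as GABP. The 250 bases upstream of the start were taken from RefSeq (GRCm38.p6), which held 62 of the 77 members. The NRF1 motif (GCGCA and GCGC with 1 free base between them), searched on both strands like the others, occurred in 12 of these 62 (19.4%) and in 3.86% of all 27025 promoters. The ETS motif CCGGAAG occurred in 11 (17.7%) and in 7.05% of all. The ERR motif TCAAGGTCA occurred in 1 member and in 0.366% of all, and the YY1 motif AAGATGGC in 0 members and 1.59% of all. With the first 50 transcribed bases added to the window, the YY1 letters occurred in 8 members (12.9%) and in 2.88% of all. A match is a string of letters and not a bound site. Cox6a1, Sdhd and Atp5h held both the NRF1 and the ETS letters. The windows of 15 members were free of annotated exons of any gene, and 4 of these are printed: Atp5g3 for the ERR letters, Ndufb6 for the ETS letters, and Ndufb8 and Uqcr10 because they lay under an unadjusted p of 0.05 in tumour epithelial-like cells (below). Capitals mark motif matches, and the last base lies next to the transcription start.
Atp5g3: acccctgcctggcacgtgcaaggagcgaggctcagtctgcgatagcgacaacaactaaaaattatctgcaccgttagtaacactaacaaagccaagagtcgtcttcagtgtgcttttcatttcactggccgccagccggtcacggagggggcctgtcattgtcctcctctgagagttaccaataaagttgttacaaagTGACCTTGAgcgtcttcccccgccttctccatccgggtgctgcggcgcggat
Ndufb6: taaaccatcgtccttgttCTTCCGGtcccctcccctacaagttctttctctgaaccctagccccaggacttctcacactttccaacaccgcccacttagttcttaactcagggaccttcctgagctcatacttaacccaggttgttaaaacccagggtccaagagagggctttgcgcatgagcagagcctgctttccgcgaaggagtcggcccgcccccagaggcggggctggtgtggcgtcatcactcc
Ndufb8: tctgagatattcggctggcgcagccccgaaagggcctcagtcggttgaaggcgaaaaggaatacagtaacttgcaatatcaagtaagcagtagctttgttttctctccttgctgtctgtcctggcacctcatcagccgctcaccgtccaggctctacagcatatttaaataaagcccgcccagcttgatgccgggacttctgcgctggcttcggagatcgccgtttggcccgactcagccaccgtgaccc
Uqcr10: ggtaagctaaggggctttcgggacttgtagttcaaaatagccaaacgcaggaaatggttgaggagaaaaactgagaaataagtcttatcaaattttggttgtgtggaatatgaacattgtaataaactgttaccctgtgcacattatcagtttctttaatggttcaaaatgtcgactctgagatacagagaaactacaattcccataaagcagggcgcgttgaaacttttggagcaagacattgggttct
All 4 genes lie on the minus strand, at chr2:73911327-73911576, chr4:40279422-40279671, chr19:44555443-44555692 and chr11:4704345-4704594 for the printed windows. In Atp5g3 and Ndufb6 the match read in the reverse direction. Ndufb8 and Uqcr10 held none of the 4 motifs in this window.

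The 6 libraries kept 332 to 2325 barcodes with at least 200 detected genes, 6730 in all, with 181213 to 1857821 UMIs in them and a median of 400 to 834 UMIs per cell. Clustering without the members gave 16 clusters, of which 12 were named from marker genes as "-like" classes. Classes were filled very unevenly: neutrophil-like cells ranged from 0.129% of a library (FVIO-MHT replicate 3) to 79.8% (FVIO-MHT replicate 1), and the latter held 1 tumour epithelial-like cell. The label of 4T1 tumour was checked on 9 epithelial markers, which summed to 0 counts per 1000000 UMIs (CPM) in FVIO-MHT replicate 1 and to 1731 to 4778 CPM in the other 5 libraries. PBS replicates 2 and 3 shared 33 cell barcodes among the kept ones, and results were recomputed without these cells. A further 3 clusters led by haemoglobin genes held 37.7% of FVIO-MHT replicate 3 and at most 8.69% of any other library, and they were left unnamed. In these clusters haemoglobin genes summed to 23.2 and 1090 CPM for FVIO-MHT replicates 2 and 3 and to 0 CPM in each PBS library. The 9 tumour epithelial markers summed there to 2515 to 5303 CPM, beside 2937 to 6201 CPM in tumour epithelial-like cells.

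The summed level of the 77 members separated the libraries within the FVIO-MHT group and not the groups. Over all cells, the members summed to 3703, 16536 and 26986 CPM for FVIO-MHT replicates 1, 2 and 3, and to 17692, 17270 and 17173 CPM in PBS replicates 1, 2 and 3. FVIO-MHT replicate 1 thus lay at 0.213 times the PBS mean, replicate 2 at 0.952 and replicate 3 at 1.55, whereas the PBS libraries had an SD of 276 CPM (n = 3). These whole-library sums mix cell classes, so a different cell makeup and a different level per cell cannot be told apart in them. FVIO-MHT replicate 1 was the lowest library for 75 of the 77 members, and FVIO-MHT replicate 3 the highest for 60. The median member stood 0.60 above the PBS mean in replicate 3 and -2.04 from it in replicate 1, on the log2 scale with 10 CPM added.

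**Figure D1:**
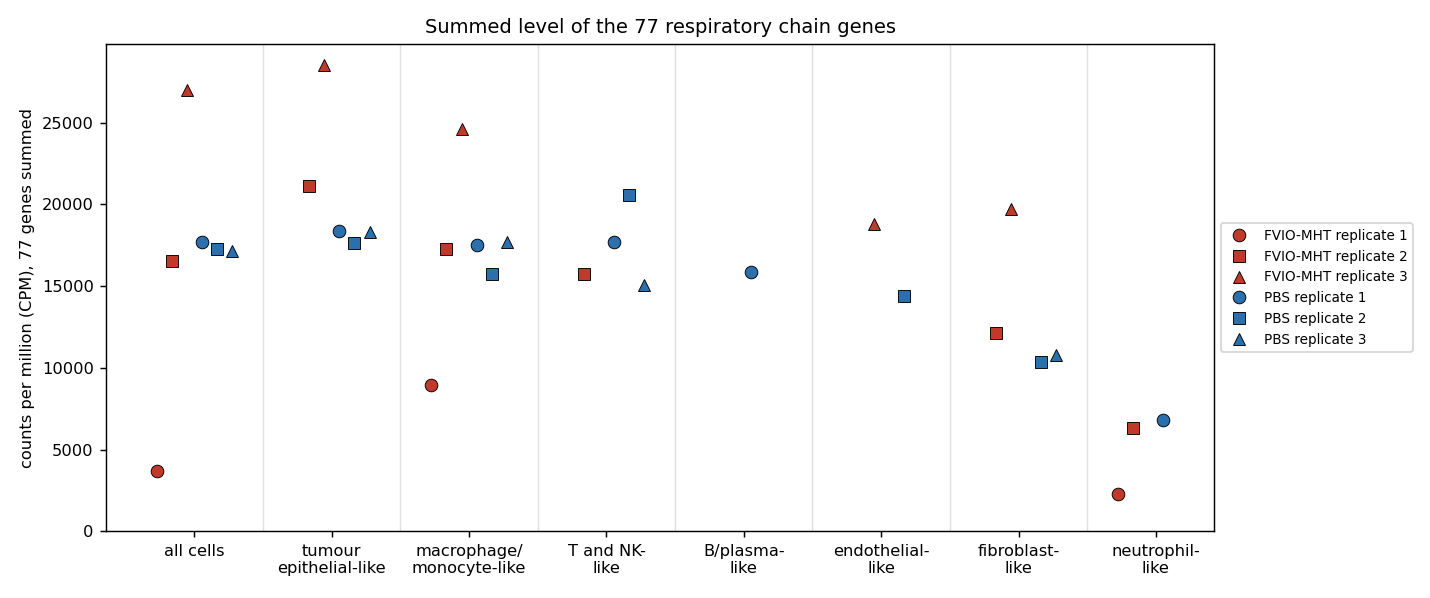
Summed level of the 77 members in CPM (vertical axis) for all cells and for each class with at least 20 cells in a library (horizontal axis). Each point is 1 library, red for FVIO-MHT and blue for PBS, with the shape giving the replicate. FVIO-MHT replicate 3 is the highest point wherever it appears, and FVIO-MHT replicate 1 the lowest.

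The same 2 libraries stood out inside single cell classes. In tumour epithelial-like cells the members summed to 21107 and 28494 CPM for FVIO-MHT replicates 2 and 3, and to 18397, 17644 and 18306 CPM in the PBS libraries. Both FVIO-MHT libraries lay above all 3 PBS libraries there, at 1.17 and 1.57 times the PBS mean. In macrophage/monocyte-like cells the FVIO-MHT libraries gave 8979, 17296 and 24613 CPM and the PBS libraries 17496, 15748 and 17701 CPM, so the groups overlapped. Fibroblast-like cells gave 12147 and 19743 CPM for FVIO-MHT replicates 2 and 3 against 10380 and 10780 CPM in PBS replicates 2 and 3. For endothelial-like cells 1 library of each group could be used, FVIO-MHT replicate 3 with 18789 CPM and PBS replicate 2 with 14414 CPM. FVIO-MHT replicate 3 was thus the highest library in each of these 4 classes.

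Neutrophil-like cells had the lowest member sums of any class: 2284 and 6347 CPM for FVIO-MHT replicates 1 and 2, and 6809 CPM for PBS replicate 1. T and NK-like cells gave 15759 CPM for FVIO-MHT replicate 2, and 17666, 20596 and 15058 CPM for PBS replicates 1 to 3, and B/plasma-like cells 15834 CPM in PBS replicate 1. Within FVIO-MHT replicate 2 the order was tumour epithelial-like, macrophage/monocyte-like, T and NK-like, fibroblast-like and neutrophil-like. Within PBS replicate 1 the order was tumour epithelial-like, T and NK-like, macrophage/monocyte-like, B/plasma-like and neutrophil-like. Classes were compared as a description, with no test, because clustering used these cells. Markers of tumour epithelium summed to 0 to 170 CPM in neutrophil-like cells and to 2937 to 6201 CPM in tumour epithelial-like cells.

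Other RNA was measured in the same libraries. Ribosomal protein genes summed to 12229, 69185 and 98243 CPM over all cells for FVIO-MHT replicates 1 to 3, and to 81912 to 99531 CPM in PBS, so replicates 1 and 2 lay below the PBS range and replicate 3 inside it. Malat1, a long non-coding RNA held in the nucleus, stood in tumour epithelial-like cells at 10606 and 6325 CPM for FVIO-MHT replicates 2 and 3, and at 21934 to 30229 CPM in PBS. Over all cells Malat1 was at 23310 CPM in FVIO-MHT replicate 1, inside the PBS range of 22702 to 32724 CPM. Short transcripts were those under 1000 bases, members left out. They stood in tumour epithelial-like cells at 1.01 and 1.16 times the PBS mean for FVIO-MHT replicates 2 and 3. Over all cells they stood at 1.48, 1.05 and 1.16 times for FVIO-MHT replicates 1 to 3. Haemoglobin genes in tumour epithelial-like cells were at 12.9 and 339 CPM for FVIO-MHT replicates 2 and 3. In PBS they were at 0.662 to 42.2 CPM there. The part of these differences in the member levels was not tested.

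The clusters that made up the tumour epithelial-like class also differed between libraries: cluster 6 gave 95.4% of these cells in FVIO-MHT replicate 3, cluster 10 gave 58.5% in PBS replicate 1, and cluster 12 gave 60.3% in PBS replicate 2 and 82 of 164 cells in PBS replicate 3. Cluster 8 was led by interferon and antigen-presentation genes such as Psmb9, and cluster 12 by heat-shock and stress genes such as Dnajb1 and Atf3. Within cluster 8, the one that all 5 libraries filled with at least 20 cells, the member sum was 22691 and 25249 CPM in FVIO-MHT and 19462, 20689 and 21385 CPM in PBS, and the groups did not overlap. Within cluster 6 it was 21005 and 28669 CPM in FVIO-MHT and 18615 and 22132 CPM in PBS replicates 1 and 2, and the groups overlapped. The macrophage/monocyte-like class came 95.2% and 81.4% from cluster 2 in FVIO-MHT replicates 1 and 3, and 77.9% to 94.5% from cluster 1 in PBS and 78.7% in FVIO-MHT replicate 2. Cluster 2 carried 3 tumour epithelial markers. Within cluster 1 the sum was 15983 and 25659 CPM for FVIO-MHT replicates 2 and 3 and 15808 to 18574 CPM in PBS. Within cluster 2 it was 8611, 23211.5 and 24357 CPM for FVIO-MHT replicates 1 to 3. PBS replicate 1, with 21 cells in cluster 2, gave 16738 CPM.

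The balance between the complexes moved far less than their level. Complex I genes gave 30.7% to 35.5% of the member UMIs over all cells, complex II 1.40% to 2.41%, complex III 9.09% to 11.5%, complex IV 31.3% to 33.5% and complex V 20.4% to 24.0% across the 6 libraries. FVIO-MHT replicate 3 had the highest complex I share and the lowest complex II share, and each of complexes I, III, IV and V stood at 1.46 to 1.74 times the PBS mean there while complex II stood at 1.03 times. That value rested on Sdhd, at 0.0779 times the PBS mean: Sdha, Sdhb and Sdhc together stood at 1.53 times. In neutrophil-like cells complex V gave 14.1% to 20.1% of member UMIs. Inside ATP synthase, genes of the catalytic F1 head stood at 1.23 times the PBS mean in FVIO-MHT replicate 3 and genes of the membrane part and stalk, c ring included, at 1.71 times. The order was reversed in FVIO-MHT replicate 2, at 1.00 and 0.947 times, and replicate 1 gave 0.159 and 0.208 times. In tumour epithelial-like cells replicate 2 gave 1.27 and 1.15 times and replicate 3 gave 1.26 and 1.76 times.

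**Figure D2:**
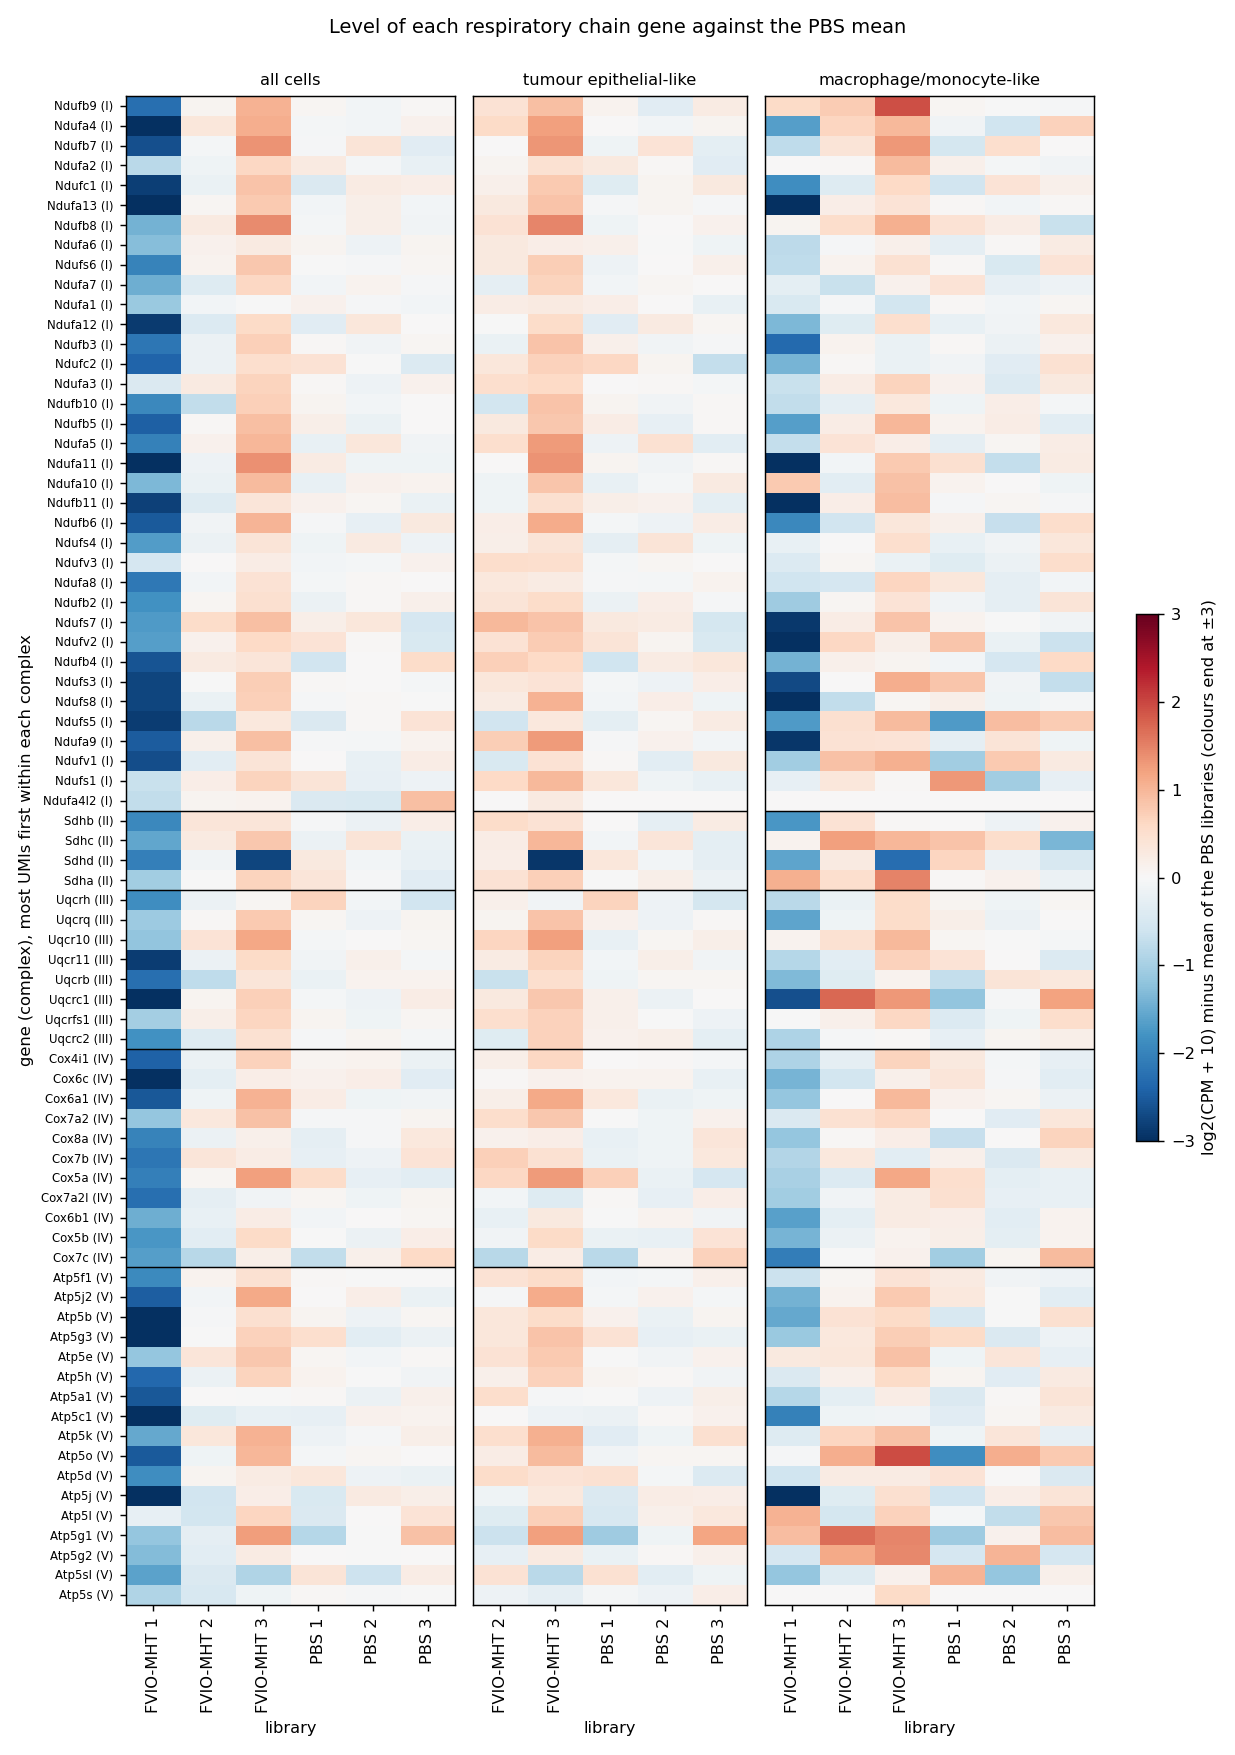
Level of 76 members in each library, as log2(CPM + 10) minus the mean of the PBS libraries, for all cells, tumour epithelial-like cells and macrophage/monocyte-like cells, with genes in rows by complex and libraries in columns. Red is higher and blue lower than PBS. FVIO-MHT replicate 3 is red for most genes in all 3 blocks, with Sdhd as a blue exception, and FVIO-MHT replicate 1 is blue for most genes in the 2 blocks where it appears.

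FVIO-MHT was compared with PBS on counts summed per library, with edgeR's quasi-likelihood test across all genes. Over all cells, 0 of 75 tested members passed an adjusted p of 0.05, against a background of 0% of the 8603 genes tested, and DESeq2 called 0 members, where it called 2.15% of all genes. At an unadjusted p under 0.05, edgeR found 0 members, where 5.24% of all genes lay under it and 3.68% did so on the higher side. The median log2 fold change of the members was -0.07 and that of all genes -0.04, and 32 members had a positive value (42.7%), against 47% of all genes. Without FVIO-MHT replicate 3 the median member was -0.63 and without FVIO-MHT replicate 1 it was 0.29, so its sign depended on those libraries. No member had all FVIO-MHT libraries above or below all PBS libraries, where 3.17% of all genes did so above and 9.46% below.

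The member with the lowest p over all cells was Atp5sl, a gene with an ATP synthase name that encodes no subunit of that enzyme. It stood at 0, 12.2 and 6.30 CPM for FVIO-MHT replicates 1 to 3 and at 29.5, 9.69 and 25.5 CPM in PBS (log2 fold change -1.37 ± 0.67 SE, edgeR adjusted p = 0.878). Sdhd and Cox7c followed, at -1.19 ± 0.78 and -0.61 ± 0.55, with edgeR adjusted p of 0.898 and 0.939. For all 3 genes the groups overlapped.

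In tumour epithelial-like cells the comparison had 2 FVIO-MHT libraries, since FVIO-MHT replicate 1 held 1 such cell. Here 0 of 74 tested members passed an edgeR adjusted p of 0.05 (background 0% of 7342 genes), and DESeq2 called 0 members and 0.313% of all genes. At an unadjusted p under 0.05 there were 7 members, all higher in FVIO-MHT, or 9.46%, where 9.32% of all genes lay under that p and 4.17% did so on the higher side. The median member stood at a log2 fold change of 0.42, and the median of all genes at 0.01. Of the 74 members 64 had a positive value, against 51.1% of all genes. Both FVIO-MHT libraries exceeded all 3 PBS libraries for 36 members (48.6%), against 17.4% of all genes, and lay below them for 0, against 9.07%. FVIO-MHT replicate 3 was the highest of the 5 libraries for 59 of the 77 members. Without it the median member stood at 0.09, and without FVIO-MHT replicate 2 at 0.63, and each of these fits has 1 FVIO-MHT library, which is assumed to vary like the PBS libraries.

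**Figure D3:**
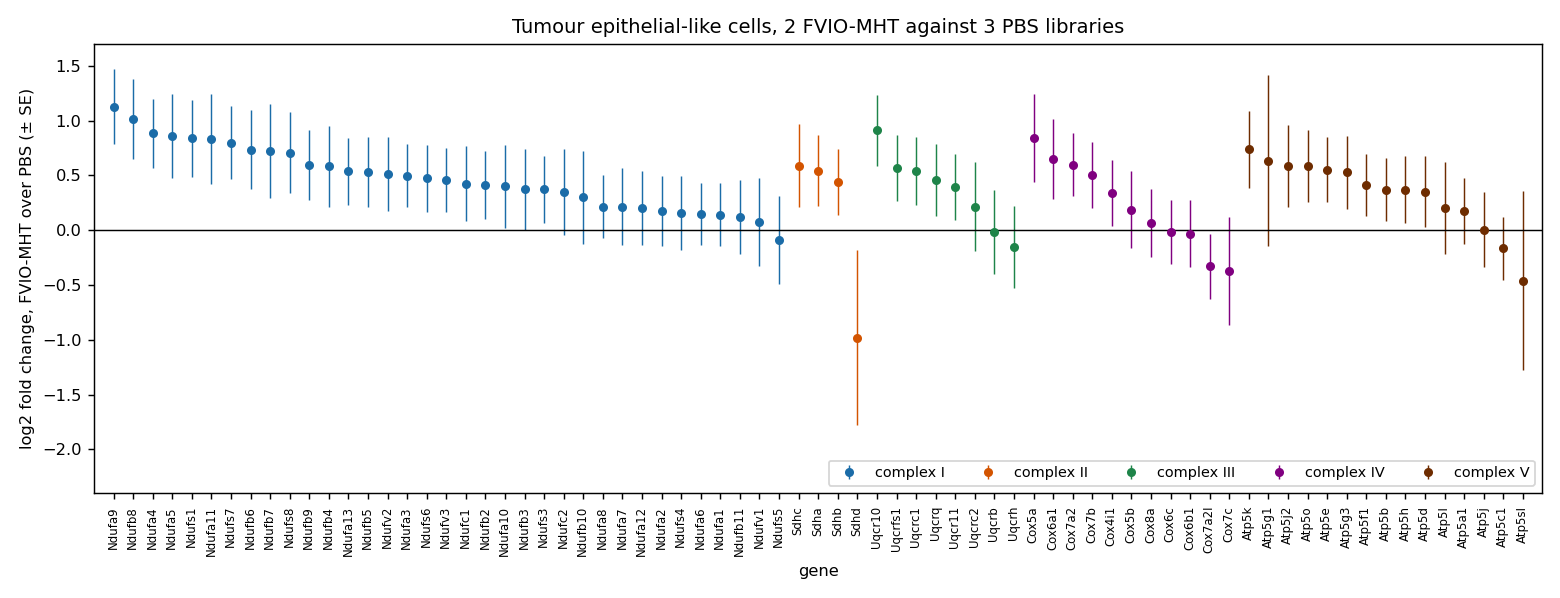
Log2 fold change of FVIO-MHT over PBS with its standard error (vertical axis) for 73 of the members tested in tumour epithelial-like cells (horizontal axis), coloured by complex and sorted within it. Most points lie above 0, Ndufa9 is the highest at 1.13 and Sdhd the lowest at -0.98, and none passed the adjusted threshold.

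Complex I takes electrons from NADH. In tumour epithelial-like cells 35 of its 36 tested genes had a positive fold change (median 0.44), against 51.1% of all genes. Both FVIO-MHT libraries lay above all PBS libraries for 21 of the 36, against 17.4% of all genes. The lowest p was that of Ndufa9, an accessory subunit at the joint of the matrix and membrane arms. It stood at 67.3 and 102 CPM for FVIO-MHT replicates 2 and 3 and at 34.7, 40.4 and 33.8 CPM in PBS, so the groups did not overlap (log2 fold change 1.13 ± 0.34 SE, edgeR adjusted p = 0.449). Ndufb8, a membrane arm subunit often used as a marker of assembled complex I, stood at 238 and 498 CPM against 157, 176 and 190 CPM in PBS (1.01 ± 0.36 on the log2 scale, edgeR adjusted p = 0.470, from 0.0392 to 0.996 over the alternatives). Without FVIO-MHT replicate 2 its log2 fold change was 1.46 with an edgeR adjusted p of 0.0392, and without FVIO-MHT replicate 3 it was 0.31 with an edgeR adjusted p of 0.897.

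Ndufa4 carries a complex I name and is now counted with complex IV. It stood at 406 and 639 CPM in FVIO-MHT and at 269, 254 and 283 CPM in PBS (log2 fold change 0.89 ± 0.31, edgeR adjusted p = 0.470). Ndufs1, the largest core subunit with iron-sulphur clusters, Ndufs7, another iron-sulphur core subunit, and Ndufa5, an accessory subunit of the matrix arm, were the other complex I genes under an unadjusted p of 0.05, with log2 fold changes of 0.84, 0.80 and 0.86. All 7 core genes had a positive value, against 51.1% of all genes. Of the 7, 6 had both FVIO-MHT libraries above all PBS libraries, against 17.4% of all genes. Ndufv1, which binds NADH, was the core gene that did not, at 41.4 and 85.8 CPM against 62.2, 46.3 and 76.0 CPM.

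In complex II, which oxidises succinate, the catalytic genes Sdha and Sdhb and the anchor gene Sdhc stood in tumour epithelial-like cells at log2 fold changes of 0.54, 0.44 and 0.59, with edgeR adjusted p of 0.615, 0.665 and 0.637. Sdhb was at 179 and 165 CPM in FVIO-MHT and at 121, 98.0 and 144 CPM in PBS. Sdhd, the other membrane anchor, went against the rest of its complex in 1 library. It stood at 150 CPM for FVIO-MHT replicate 2 and at 8.47 CPM for replicate 3, where PBS gave 166, 122 and 106 CPM.

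The low value of Sdhd in FVIO-MHT replicate 3 was not limited to tumour epithelial-like cells. Over all cells that library held 17 Sdhd UMIs among 1747110, beside 165 of Sdha, 255 of Sdhb and 221 of Sdhc. Its Sdhd level was 9.73 CPM. FVIO-MHT replicate 2 stood at 113 CPM and replicate 1 at 22.1 CPM (4 UMIs), and PBS at 154, 116 and 104 CPM. In the macrophage/monocyte-like class that library gave 14.4 CPM against 74.6 to 177 CPM in PBS, and barcodes below the gene minimum 13.0 CPM against 71.8 to 124 CPM. None of the 50-base words at the end of Sdhd occurred in another gene. The ratio to the PBS mean, 0.0779, was at or below that value for 9 of 2922 genes (0.308%) with at least 50 CPM in each PBS library; the median gene stood at 0.979. The other 8 were BC100530, Gbp4, H2-T22, H2-T23, Hspa1b, Prlr, Psmb9 and Ptn. Of these, Gbp4, H2-T22, H2-T23 and Psmb9 were among the leading genes of cluster 8, Hspa1b of cluster 12, and Prlr and Ptn of cluster 13, clusters that held 24, 0 and 0 cells of FVIO-MHT replicate 3. Sdhd was not among the leading genes, a short list per cluster from which its level by cluster cannot be read. Timm8b, whose start lies next to that of Sdhd on the opposite strand of chromosome 9, stood at 93.9 CPM in FVIO-MHT replicate 3 and at 73.8 to 106 CPM in PBS. Sdhd and the genes set beside it here were singled out after their values were seen. The cause of the low Sdhd value was not tested. In tumour epithelial-like cells the edgeR fold change of Sdhd was -0.98 ± 0.80 (adjusted p = 0.722), 0.04 without FVIO-MHT replicate 3 and -3.99 without FVIO-MHT replicate 2, where the edgeR adjusted p was 0.00517.

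Complex III passes electrons from ubiquinol to cytochrome c. In tumour epithelial-like cells 6 of its 8 genes had a positive fold change (median 0.43), against 51.1% of all genes. Uqcr10, a small membrane subunit, stood at 334 and 509 CPM in FVIO-MHT and at 179, 219 and 241 CPM in PBS, with no overlap (0.91 ± 0.32, edgeR adjusted p = 0.470). Uqcrfs1, the Rieske iron-sulphur protein, stood at 119 and 138 CPM against 91.4, 80.8 and 71.8 CPM, and the core gene Uqcrc1 at 186 and 271 CPM against 166, 132 and 152 CPM. Uqcrc2, the member of this complex with the fewest UMIs (414), overlapped between groups, at 44.0 and 103 CPM against 65.8, 68.8 and 46.4 CPM. Uqcrh and Uqcrq, with the most UMIs of the complex (2524 and 1920), also overlapped. Uqcrh stood at 484 and 405 CPM against 691, 391 and 300 CPM.

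Complex IV reduces oxygen, and its genes were the least shifted of the 4 complexes with 8 or more tested genes. In tumour epithelial-like cells 7 of 11 had a positive fold change (median 0.19), against 51.1% of all genes. Cox4i1, a regulatory subunit and the member with the most UMIs (12052), stood at 2146 and 2918 CPM in FVIO-MHT and at 1916, 1941 and 1807 CPM in PBS (0.34 ± 0.30, edgeR adjusted p = 0.748). Cox6c overlapped, at 916 and 972 CPM against 956, 966 and 768 CPM. Cox7a2 stood at 673 and 816 CPM against 461, 426 and 507 CPM, whereas the related gene Cox7a2l stood at 414 and 333 CPM against 446, 369 and 507 CPM. Cox5a and Cox5b stood at log2 fold changes of 0.84 and 0.19, and both overlapped between groups. Cox7c, with the fewest UMIs of the complex (1038), stood at 98.4 and 216 CPM against 101, 197 and 300 CPM.

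Paired isoforms of complex IV were read almost wholly from the form found in most tissues. Cox4i1 took 12052 UMIs and Cox4i2 11, Cox6a1 3540 and Cox6a2 4, Cox6b1 1881 and Cox6b2 10, Cox7a2 3257 and Cox7a1 16, Cox8a 3043 and Cox8b 4, and Cox7b 2539 and Cox7b2 0. Cox6a2, Cox7a1 and Cox8b are known as the heart and muscle forms, and Cox4i2 as a form of lung and of low oxygen. These forms and Cox8c were the 7 symbols left out by the minimum of 20 UMIs. Just inside it stood Ndufa4l2, a hypoxia-linked relative of Ndufa4, with 37 UMIs, Atp5s with 42 and Atp5sl with 78.

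Complex V had 13 of 15 tested genes with a positive fold change in tumour epithelial-like cells (median 0.37), against 51.1% of all genes. The catalytic subunit gene Atp5b stood at 626 and 724 CPM in FVIO-MHT and at 536, 425 and 519 CPM in PBS, with no overlap. Atp5a1, which pairs with it in the F1 head, stood at 523 and 346 CPM against 353, 320 and 405 CPM, with overlap. Atp5f1, of the peripheral stalk, stood at 709 and 766 CPM against 490, 495 and 578 CPM, and Atp5j2, of the membrane part, at 409 and 907 CPM against 397, 452 and 401 CPM. Atp5g3 stood at 453 and 648 CPM against 479, 299 and 308 CPM. Atp5g1 varied widely within both groups, at 15.5 and 83.7 CPM against 9.14, 26.5 and 80.2 CPM.

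In macrophage/monocyte-like cells, with 3 libraries in each group, 0 of 60 tested members passed an edgeR adjusted p of 0.05 (background 0% of 2094 genes), and DESeq2 called 0 members and 0.143% of all genes. Under an unadjusted p of 0.05 lay 1 member, Ndufb9, which was higher, where 4.73% of all genes lay under it and 2.34% did so on the higher side. The median member stood at 0.11, and 35 of 60 had a positive value, against 49.9% of all genes. Without FVIO-MHT replicate 3 the median was -0.32 and without FVIO-MHT replicate 1 it was 0.30, so the sign of the median depended on those libraries. Ndufb9 and Uqcr10 had all FVIO-MHT libraries above all PBS libraries, or 3.33% of the members, against 3.63% of all genes, and 0 members lay below, against 6.35%.

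Ndufb9, an accessory subunit of the complex I membrane arm, stood in macrophage/monocyte-like cells at 207, 240 and 551 CPM for FVIO-MHT replicates 1 to 3, and at 142, 134 and 134 CPM in PBS (log2 fold change 1.41 ± 0.48 SE, edgeR adjusted p = 0.969). Tumour epithelial markers summed in the same cells to 0, 113 and 1126 CPM in FVIO-MHT and to 159, 755 and 403 CPM in PBS, with 8 of 9 markers detected and Krt19 at 0. Neutrophil markers summed to 6853, 3559 and 1432 CPM against 3043, 333 and 1178 CPM. Their part in the Ndufb9 difference was not tested. Uqcr10 stood at 236, 304 and 441 CPM against 230, 218 and 209 CPM (0.68 ± 0.40, edgeR adjusted p = 0.969), and Ndufb8 at 207, 282 and 422 CPM against 265, 230 and 119 CPM (0.67 ± 0.45, edgeR adjusted p = 0.969). The lowest FVIO-MHT value of Uqcr10 in this class, 236 CPM, was close to its highest PBS value, 230 CPM. Members with all FVIO-MHT libraries above all PBS libraries here were 3.33%, near the 3.63% of all genes. Uqcr10 also lay under an unadjusted edgeR p of 0.05 in tumour epithelial-like cells, and nothing further is read from that overlap.

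Ndufb9 also took different shares of the member UMIs in different classes. It gave 3.51% to 5.19% of the member UMIs in the 5 libraries of tumour epithelial-like cells, 0.76% to 2.30% in the 6 of macrophage/monocyte-like cells and 0.75% to 1.36% in the 4 of T and NK-like cells. In the 3 neutrophil-like libraries the share was 1.04% to 3.96%, on 53 UMIs, which overlapped the tumour epithelial-like range. Its level was 620 to 1479 CPM in tumour epithelial-like cells and at most 551 CPM in any library of the other named classes. The haemoglobin-led clusters gave 591 to 1340 CPM. Of the 50-base words at the end of its transcript, 29.0% also occurred in 1 other gene. The gene lies on chromosome 15, from 58933756 to 58939488 on the plus strand (GRCm38, GENCODE).

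**Figure D4:**
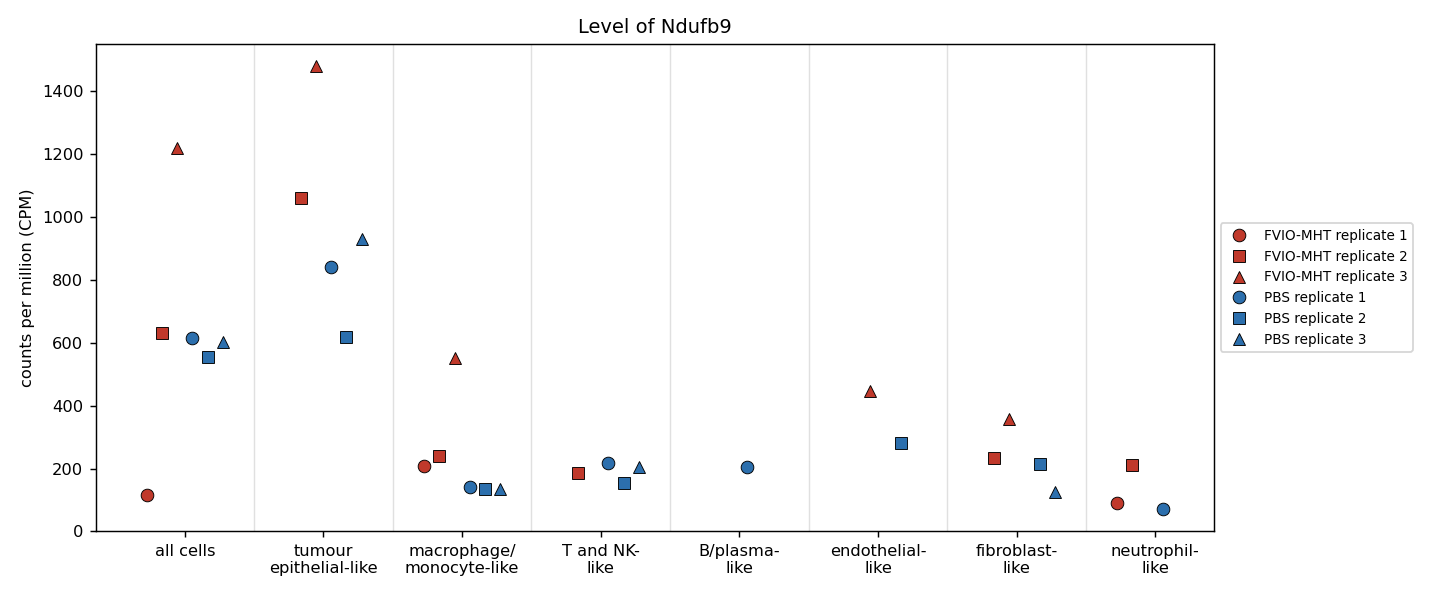
Level of Ndufb9 in CPM (vertical axis) for all cells and for each class with at least 20 cells in a library (horizontal axis), with 1 point per library, red for FVIO-MHT and blue for PBS. Tumour epithelial-like cells span 620 to 1479 CPM, and the libraries of the other named classes lie at 551 CPM or below.

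Shares of some other members also differed between neutrophil-like and tumour epithelial-like libraries, while the ranges of Cox4i1 overlapped. Cox4i1 gave a median of 10.2% of member UMIs in tumour epithelial-like cells, 9.46% in macrophage/monocyte-like cells and 8.23% in neutrophil-like cells. Cox7a2 gave 5.00% to 6.10% in the 3 neutrophil-like libraries and 2.42% to 3.19% in the 5 tumour epithelial-like ones. Ndufa3, an accessory complex I subunit, gave 1.39% to 4.27% and 0.65% to 0.85% in these classes, with 37 UMIs in neutrophil-like cells. In the opposite direction, Atp5b gave 0.30% to 1.48% in neutrophil-like and 2.41% to 2.97% in tumour epithelial-like libraries. The neutrophil-like range of Atp5b rests on few molecules, 20 UMIs in the whole class. Atp5c1, the central shaft of the F1 head, gave 10 of 1673 member UMIs in neutrophil-like cells and 1541 of 76121 in tumour epithelial-like cells. These genes were named after the class shares were seen.

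Genes around the chain gave 0 calls at an edgeR adjusted p of 0.05 in each of the 3 comparisons, against 0% of all genes. Of all genes, 47% had a positive fold change over all cells. Over all cells, 36 of 46 assembly factors were tested, with 18 positive and a median log2 fold change of 0.00, where Pet100, a complex IV assembly factor, stood at 1.02 and Foxred1, a complex I assembly factor, at -1.05. All 17 genes of the tricarboxylic acid cycle were tested, with 6 positive and a median of -0.10, Idh3b at -0.55 and Ogdh at 0.41. All 10 genes for metabolite carriers and cytochrome c were tested, with 2 positive and a median of -0.20, Cycs (cytochrome c) at 0.74 and Slc25a5 (an ADP/ATP carrier) at -0.77. Of 13 biogenesis regulators 8 were tested, and Esrra, a nuclear receptor that binds the ERR motif, and Tfb2m, a mitochondrial transcription factor, lay under an unadjusted p of 0.05. Esrra stood at 232, 56.6 and 36.1 CPM in FVIO-MHT and at 30.7, 30.1 and 21.2 CPM in PBS, above all PBS libraries in each (2.40 ± 0.91, edgeR adjusted p = 0.878). DESeq2 gave it an adjusted p of 0.0306, and over the other alternatives that p ran from 0.187 upward. Without FVIO-MHT replicate 1 the edgeR fold change of Esrra was 0.70. Tfb2m stood at 0, 12.2 and 9.73 CPM against 28.4, 17.8 and 38.2 CPM (-1.51 ± 0.58, edgeR adjusted p = 0.878).

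In tumour epithelial-like cells the tricarboxylic acid cycle genes had 12 of 17 positive with a median of 0.26, and the assembly factors 20 of 28 with a median of 0.23. The carriers had 7 of 10 positive (median 0.10) and the regulators 4 of 8 (median 0.01). All genes had 51.1% positive and a median of 0.01. Members stood at 0.42 in that comparison. In macrophage/monocyte-like cells few of these genes could be tested: 4 assembly factors (median 0.01), 4 cycle genes (0.42), 6 carriers (-0.20) and 1 regulator, Yy1, at 29.5, 49.4 and 71.9 CPM in FVIO-MHT and 142, 154 and 134 CPM in PBS (edgeR adjusted p = 0.969).

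The mitochondrially encoded partners were low with the nuclear genes in FVIO-MHT replicate 1 but not high with them in FVIO-MHT replicate 3. Over all cells they summed to 348, 3700 and 2524 CPM for FVIO-MHT replicates 1 to 3, and to 2922, 1944 and 4577 CPM in PBS. Each mitochondrially encoded UMI was matched by 10.7, 4.47 and 10.7 nuclear member UMIs in FVIO-MHT and by 6.05, 8.89 and 3.75 in PBS, so the ratio overlapped between groups and varied within PBS too. FVIO-MHT replicate 1 had nuclear members at 0.213 times the PBS mean and mitochondrially encoded genes at 0.110 times, the lowest library for both. In macrophage/monocyte-like cells of that library the values were 0.529 and 0.370 times. FVIO-MHT replicate 3, with nuclear members at 1.55 times the PBS mean, had mitochondrially encoded genes at 0.802 times. Of 7 tested genes 2 had a positive fold change over all cells (median -0.62), with mt-Co1, the catalytic subunit of complex IV, at -1.04 and mt-Nd5, a proton-pumping complex I subunit, at -1.13, and edgeR adjusted p of 0.892 for both. In tumour epithelial-like cells 2 of 7 were positive (median -0.16), and in macrophage/monocyte-like cells 3 of 6 (median 0.20). Among all genes 47%, 51.1% and 49.9% were positive in these 3 comparisons.

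These sums rest on 7 of the 13 genes. The other 6 had at most 6 UMIs over all kept barcodes: mt-Atp6 6, mt-Co2 3, mt-Co3 2, mt-Nd3 1, and mt-Nd4l and mt-Atp8 0. For 5 of these 6, between 98.0% and 100% of the 50-base words at the transcript end also occurred in transcripts of another gene, and mt-Atp8 shared none. Among the counted genes, mt-Cytb (4203 UMIs), mt-Nd1 (3329), mt-Nd4 (2029) and mt-Nd6 (145) shared none, mt-Nd2 (2869) and mt-Nd5 (961) shared 17.7% and 12.6%, and mt-Co1 (2596) shared 95.3%. No source used here says whether reads with several matches were dropped, and a true level of the 6 genes cannot be read from these counts.

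**Figure D5:**
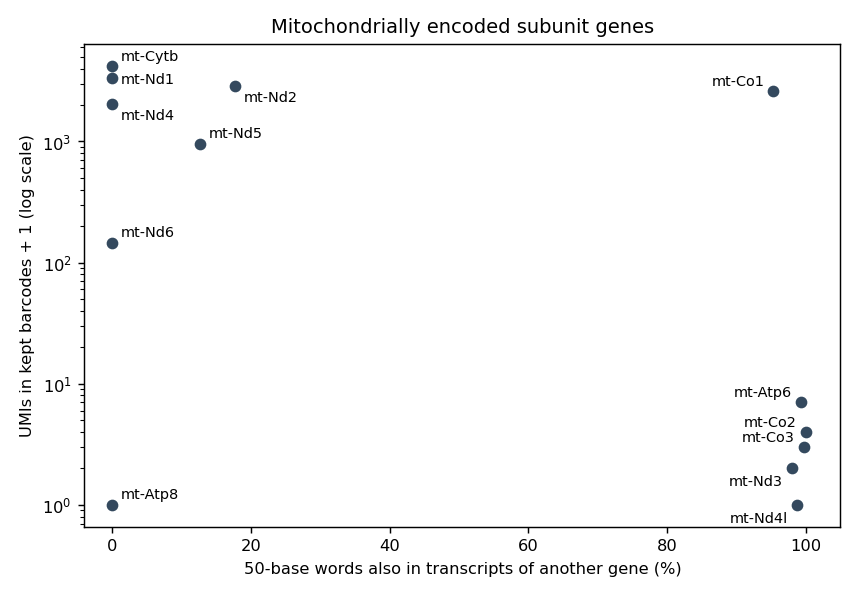
UMIs in kept barcodes plus 1 on a log scale (vertical axis) against the percentage of 50-base words at the transcript end that also occur in another gene (horizontal axis), with 1 point for each of the 13 mitochondrially encoded subunit genes. The 5 genes with 98.0% to 100% of words shared have at most 6 UMIs, and mt-Co1 at 95.3% and mt-Atp8 at 0% are the points off that pattern.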

How the data were processed

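Deposited matrices held raw UMI counts per gene and barcode for 5000 barcodes and 27998 gene rows in each of 6 Drop-seq libraries. The authors aligned reads with STAR 2.7.2b to mm10, according to the submitters' processing notes. No source used here gives the counting tool, annotation, strand setting, barcode choice or multi-mapping rule. A total of 65 rows with a repeated symbol and identical counts were dropped. Barcodes with at least 200 genes were kept, and 0 exceeded 20% mitochondrial UMIs. Scrublet called 39 doublets (0.579%), which were left in and removed as an alternative.

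Cells were scaled to 10000 counts and clustered in scanpy 1.11.5 (2000 variable genes, members left out, 30 components, Leiden resolution 1). A class name needed at least 3 of its markers, with further settings of a 2-fold level and 5% detection. The number of markers alone did not settle a name. Clusters 7, 9, 13 and 14 carried 7, 6, 9 and 4 tumour epithelial markers and stayed unnamed. Counts were summed per library, for classes with at least 20 cells, and tested with edgeR 4.0.16 (TMM, filterByExpr, quasi-likelihood test, Benjamini-Hochberg over all genes); DESeq2 1.42.0 was an alternative. CPM is relative to all UMIs of the library or class. Counts come from 1 tag near the transcript end and were not divided by length. The test code was also run on simulated counts. The simulated libraries shared the same mean profile apart from the changed genes, and every gene had the same dispersion. That run therefore cannot tell how the tests perform on libraries as uneven as these.

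The members, lists and rules were chosen with earlier results of these data known. Named genes were, per complex, the 2 with most and the 1 with fewest UMIs, the 3 lowest p per test, isoform sets, catalytic genes and the 2 lowest p of each other list, plus genes stated to be chosen after their values were seen. The values of 1 member are not reported here, and the plots of single genes leave it out.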

Additional observations from a re-analysis of the deposited data

Results flagged for a closer look

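Barcodes below the minimum of 200 detected genes were left out of the comparisons. In them the 77 members summed to 25279 CPM in FVIO-MHT replicate 3, above each of the PBS libraries (9646, 15242 and 12912 CPM), while FVIO-MHT replicates 1 and 2 gave 2923 and 10244 CPM. The value was picked out because a signal above all control libraries stood in data outside the main measurement. The order of the 3 FVIO-MHT libraries was the one seen in kept cells. Cox4i1 stood there at 2941 CPM in FVIO-MHT replicate 3 and at 953 to 1496 CPM in PBS, and haemoglobin genes at 6972 CPM against 3.99 to 2371 CPM; the part of the latter was not tested.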

How the results depend on the processing

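Members past the threshold stayed at 0 under each alternative run that kept more than 1 library in each group. The tumour epithelial-like fit without FVIO-MHT replicate 2 has 1 FVIO-MHT library. There Sdhd stood at a log2 fold change of -3.99 and Ndufb8 at 1.46. All genes called numbered 0 in each edgeR comparison. DESeq2 called 185 over all cells, 3 in macrophage/monocyte-like and 23 in tumour epithelial-like cells. No filter on low counts gave 2, 28 and 152. The replicate block gave 15 in tumour epithelial-like cells and 0 in the others, and a minimum of 100 genes gave 1 in tumour epithelial-like cells. Leaving out 1 library gave 0 over all cells, 0 to 3 in macrophage/monocyte-like and 0 to 139 in tumour epithelial-like cells, with 139 without FVIO-MHT replicate 2 and 4 without PBS replicate 1. The causes were not tested.

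The median member log2 fold change in tumour epithelial-like cells ran from 0.093 to 0.63 when 1 library was left out; FVIO-MHT replicate 1 was not in that fit. Over all cells it was -0.63 without FVIO-MHT replicate 3 and 0.29 without FVIO-MHT replicate 1. Sdhd in tumour epithelial-like cells reversed to 0.036 without FVIO-MHT replicate 3, where leaving out 1 library gave -3.99 to 0.036, and Ogdh over all cells to -0.11 without the same library, with 0.71 as the other end. Alternatives without shared barcodes, called doublets or haemoglobin-led clusters, added after seeing the data, left members at 0 calls.

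The titles give replicate numbers but no pairing by animal, so the numbers were not taken to pair libraries. Same-numbered libraries correlated at 0.17, -0.02 and -0.10 in their deviations from group means, and FVIO-MHT replicate 3 correlated best with PBS replicate 2 (0.34). The libraries differ in cell makeup, so these correlations cannot decide on a pairing. With the replicate block the median member stood at -0.29 over all cells. The uneven cell numbers, from 62 macrophage/monocyte-like cells in FVIO-MHT replicate 1 upward, limit what the class comparisons can detect. With a minimum of 400 genes per cell the median member over all cells stood at 0.07, and in macrophage/monocyte-like cells that minimum and Leiden resolution 2 left FVIO-MHT replicate 1 out. Atp5sl and Foxred1 over all cells and Sdhd in macrophage/monocyte-like cells could not be tested under some alternatives.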
